A study of Mus musculus with 8 samples.

Results

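Pax6, Emx1, Emx2, Lhx2, Gli3 and Hopx, 6 genes of dorsal forebrain identity, were followed through peak lists of PRDM16 binding in the embryonic mouse cortex. A peak belonged to a gene when its summit lay in the gene body, or within 100 kb of the nearer gene end with no closer protein-coding gene. The rule gave them 94 peaks in all, and the RefSeq table behind it holds 21887 protein-coding genes. Binding was mapped at E15.5 in whole cortex lysates by ChIP-seq, in which DNA crosslinked to PRDM16 (here by PFA and EGS) is sonicated, precipitated with an antibody and sequenced. The conditional knockout (cKO) embryos were Emx1Ires-Cre; Prdm16flox/flox, with Cre expressed from the Emx1 locus, and the wild-type (WT) embryos were Prdm16 flox/flox, with no Cre in their label. There were 2 ChIP libraries for cKO and 2 for WT, while the 4 inputs were not used here. Floxed Prdm16 alleles were thus common to both groups, and the labels do not say whether the replicates came from separate embryos. Cre from Emx1 acts in the dorsal telencephalic lineage, so cortical cells of other origin, such as interneurons, keep their Prdm16 alleles in the cKO.

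PRDM16, a PR-domain protein with zinc fingers, is made in cortical radial glia, the stem cells that give rise to cortical neurons. Dorsal telencephalic identity is set up by a network of transcription factors that hold the cortex apart from the ventral telencephalon and the cortical hem. PAX6, a paired and homeodomain factor, maintains radial glia and rostral cortical identity. EMX1 and EMX2 are empty-spiracles homeodomain factors of the dorsal telencephalon, EMX2 favouring caudal and medial identity. LHX2, a LIM-homeodomain factor, keeps cortical primordium from becoming hem. GLI3 is the zinc-finger mediator of Hedgehog signalling that acts in the cortex chiefly as a repressor. HOPX is an atypical homeodomain protein that lacks the residues for DNA contact and marks a subset of cortical and hippocampal progenitors.

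The promoters of Emx2, Lhx2 and Hopx are shown because WT peaks reached them, at Emx2 in both WT libraries. Of the 9 RefSeq start sites of the 6 genes, 4 had a WT peak over their window and none had a cKO peak. The share of all start-site windows with a peak is not given here, so these counts have no background beside them. The sequences are from RefSeq (GRCm38.p6, which is mm10), each with 250 bases before the start site and 30 from it onward, written 5′ to 3′ on the gene's strand. Capitals mark the bases inside peaks of both WT libraries for Emx2, and inside peaks of WT replicate 2, the library with peaks there, for Lhx2 and Hopx. The Emx2 window is chr19:59458440-59458719 on the plus strand, the Lhx2 window chr2:38339031-38339310 on the plus strand, and the Hopx windows chr5:77115094-77115373 and chr5:77095238-77095517 on the minus strand.
Emx2: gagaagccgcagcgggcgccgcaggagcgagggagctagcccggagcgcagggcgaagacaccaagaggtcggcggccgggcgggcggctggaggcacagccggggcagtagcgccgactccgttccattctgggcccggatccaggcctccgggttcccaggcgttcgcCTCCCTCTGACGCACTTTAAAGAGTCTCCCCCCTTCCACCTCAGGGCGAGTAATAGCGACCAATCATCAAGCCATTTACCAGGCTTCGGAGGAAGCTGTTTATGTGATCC
Lhx2: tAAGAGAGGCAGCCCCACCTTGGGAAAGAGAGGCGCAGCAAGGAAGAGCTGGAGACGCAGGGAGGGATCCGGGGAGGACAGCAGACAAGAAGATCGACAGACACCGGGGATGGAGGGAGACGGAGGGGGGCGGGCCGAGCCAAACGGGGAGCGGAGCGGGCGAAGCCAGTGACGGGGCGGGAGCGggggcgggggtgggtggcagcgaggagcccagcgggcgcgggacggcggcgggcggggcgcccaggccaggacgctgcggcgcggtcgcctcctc
Hopx, first start site: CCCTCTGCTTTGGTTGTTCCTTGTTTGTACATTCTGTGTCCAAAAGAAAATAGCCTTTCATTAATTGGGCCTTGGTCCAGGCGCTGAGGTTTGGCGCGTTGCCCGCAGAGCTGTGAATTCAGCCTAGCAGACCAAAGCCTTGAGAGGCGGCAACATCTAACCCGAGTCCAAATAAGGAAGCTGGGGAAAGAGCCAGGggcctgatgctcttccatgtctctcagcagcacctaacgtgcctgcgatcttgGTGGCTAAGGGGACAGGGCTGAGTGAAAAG
Hopx, inner start site: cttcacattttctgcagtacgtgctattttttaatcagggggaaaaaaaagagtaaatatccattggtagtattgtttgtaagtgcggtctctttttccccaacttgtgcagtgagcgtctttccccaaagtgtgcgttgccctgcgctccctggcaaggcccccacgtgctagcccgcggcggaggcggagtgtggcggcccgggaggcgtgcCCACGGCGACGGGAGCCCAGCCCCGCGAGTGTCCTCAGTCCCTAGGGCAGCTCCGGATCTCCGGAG

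At Emx2, 110 of the 280 printed bases were common to the peaks of both WT libraries, and they were the last 110, running across the start site. At Lhx2 the peak of WT replicate 2 covered 184 bases, and at the first and inner Hopx start sites peaks of that library covered 227 and 66 bases. Short motifs were searched on both strands of the full 300-base RefSeq windows, which run to 50 bases from the start site. The homeodomain core TAATTA was in 1 of the 9 windows, that of Emx2, at base 37 counted from the start site as 1, and in 4.53% of all 21263 protein-coding windows. The NFI motif TTGGC was in 2 of 9 windows (Lhx2 and the first Hopx window) against 47.9% of all, and the SOX motif ACAAAG in 1 of 9 (the inner Pax6 window) against 16.8%. The GLI motif GACCACCCA was in 0 of 9 against 0.179%, and the E-box CANNTG in 6 of 9 against 69%. Matches of different motifs did not overlap in these 9 windows. A match is a description of the letters and does not show that a factor binds.

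The libraries differed in list length and in local background, which bears on every count below. On the assembled chromosomes the cKO lists held 4553 and 3088 peaks and the WT lists 13852 and 26652. The lowest local background of any peak, in fragments, was 2.95 and 2.52 in cKO replicates 1 and 2 and 0.777 and 1.78 in WT replicates 1 and 2. At the median background of its list, the smallest fold a library called was 3.18 and 3.30 in cKO replicates 1 and 2 and 3.53 and 3.01 in WT replicates 1 and 2. The WT libraries carry a library identifier in common that the cKO libraries do not, so genotype and whatever that identifier marks cannot be told apart. Fold enrichments are the authors' values, the summit pileup over the local background with 1 added to each. Peak lists measure no expression, so neither the loss of Prdm16 nor the level of the 6 genes was checked here.

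All 6 genes carried PRDM16 peaks in both WT libraries, and 4 of them carried none in either cKO library. The number of the 6 with a peak was 2 and 1 in cKO replicates 1 and 2 and 6 and 6 in WT replicates 1 and 2. Among all protein-coding genes, 16.4% and 11.8% had a peak in cKO replicates 1 and 2, and 23.6% and 34.5% in WT replicates 1 and 2. Most protein-coding genes thus had no peak in either cKO library, so its absence is not particular to these genes. The 6 genes together held 4 and 2 peaks in cKO replicates 1 and 2, against 34 and 54 in WT replicates 1 and 2, a mean of 3 ± 1.41 in cKO and 44 ± 14.1 in WT (SD, n = 2 each). Per 1000 peaks of the list that is 0.879 and 0.648 in the cKO libraries and 2.45 and 2.03 in the WT libraries. On either scale the cKO values were under the WT values, with no overlap. Cut to the 3088 most significant peaks of each list, the counts were 3 and 2 in cKO and 14 and 10 in WT. No share over all genes is given for lists of this length, so these counts have no background beside them.

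**Figure D1:**
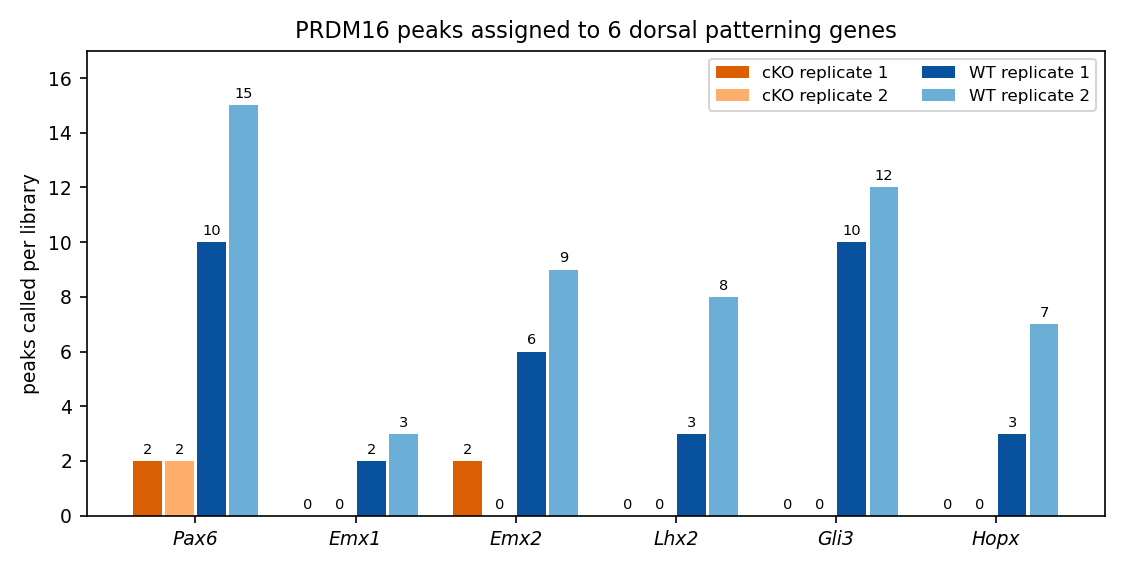
Number of PRDM16 peaks (y axis, peaks called per library) assigned to each of the 6 genes (x axis) in cKO replicates 1 and 2 and WT replicates 1 and 2, 1 bar per library with its count above it. Pax6 has 2 and 2 cKO peaks and Emx2 has 2 and 0, while Emx1, Lhx2, Gli3 and Hopx have no cKO bar.

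Each of the 6 genes had fewer peaks in both cKO libraries than in both WT libraries, which was so for 15.7% of all protein-coding genes and for 26.9% of the 10932 genes whose territory, the genome nearest to them within the 100 kb limit, was at least as long as that of Emx1, the shortest of the 6. The reverse, more peaks in both cKO libraries, was seen at 1.7% of genes and at none of the 6. With 2 libraries against 2, an exact two-sided permutation test cannot give less than 0.333, and each of the 6 genes gave p = 0.333 (adjusted exact p = 1 over all genes). No gene of the table passed, at an unadjusted or an adjusted threshold of 0.05.

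Peaks that overlapped between both WT lists formed 25 regions at the 6 genes, and 23 of them overlapped no cKO peak; these are called WT-only regions. The share of all such WT regions without a cKO overlap was 91.5%, so the 23 of 25 are close to the background. The other 2, both in Pax6, overlapped peaks of both cKO libraries. In all 23 WT-only regions both WT folds were above the higher cKO calling limit of 3.30 at median background. The limits of WT replicates 1 and 2 were themselves 3.53 and 3.01, so being called in both WT lists largely fixed this outcome. When the smaller of the WT folds was divided by 2, 12 of the 23 still passed the cKO limit. The share over all WT-only regions of the genome is not given here. At the rest of the 23, a cKO signal of that reduced size would have been under the limit, which itself varies with local background. A further 26 regions were called in WT replicate 2 alone, with folds of 2.97 to 11.7 and a median of 4.73, and 6 in WT replicate 1 alone, with folds of 4.60 to 6.07.

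All 6 genes had a region in both WT lists and all 6 a WT-only region. Over all protein-coding genes the shares were 18.3% and 16.6%, and over those with a territory at least as long as that of Emx1 they were 30.5% and 28.5%. Long territories give more room for peaks: the median territory was 121 kb for the 6 genes and 45.8 kb for all genes. The median number of regions found in both WT lists was 3 for the 6 genes and 0 for all genes. Pax6 ranked 74th of all genes by this number, with 8 regions, and Gli3 101st with 7, where tied genes share the best rank. In all, 100 genes, Pax6 among them, had as many regions as Pax6 or more. Emx2 and Lhx2 had 3 regions each, and Emx1 and Hopx 2 each. Per 100 kb of territory, Pax6 had 6.18 such regions, Emx1 4.36, Lhx2 2.64, Hopx 2.33, Emx2 1.84 and Gli3 1.501.

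**Figure D2:**
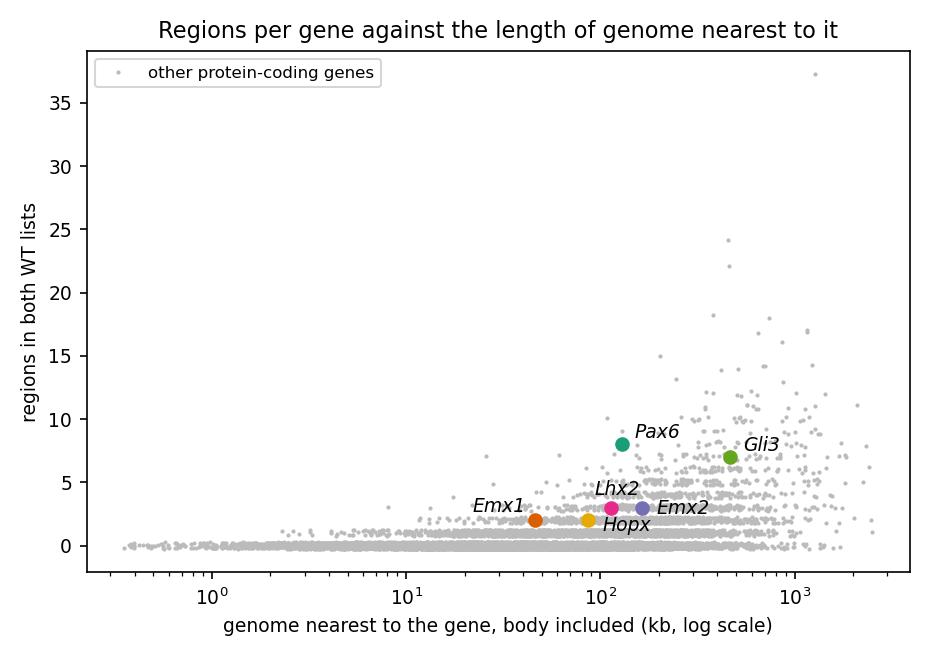
Number of regions found in both WT lists (y axis) against gene territory (x axis, kb on a log scale), with the 6 genes coloured and all other protein-coding genes in grey, spread vertically by a small random offset for visibility. Pax6 (8 regions in 129.5 kb) stands highest of the 6, followed by Gli3 (7 in 466 kb).

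The regions found in both WT lists at the 6 genes are set here beside those of the whole genome. Their median mean fold was 8.29, against 7.46 over all 10090, and their median width 657 bp, against 541 bp. The fold was higher in WT replicate 1 for 14 of the 25 regions and higher in WT replicate 2 for 11. Summits of the 2 replicates lay a median of 64 bp apart, and at most 100 bp apart in 17 of the 25. Their positions were 14 in gene bodies, 10 outside genes and 1 within 1 kb of a gene end. As shares of the 25 that is 56%, 40% and 4%. The rule takes no region farther than 100 kb from a gene, and over the 8082 regions of the genome within that distance the shares were 56.8%, 34.6% and 8.55%, so the share in gene bodies was about the same.

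**Figure D3:**
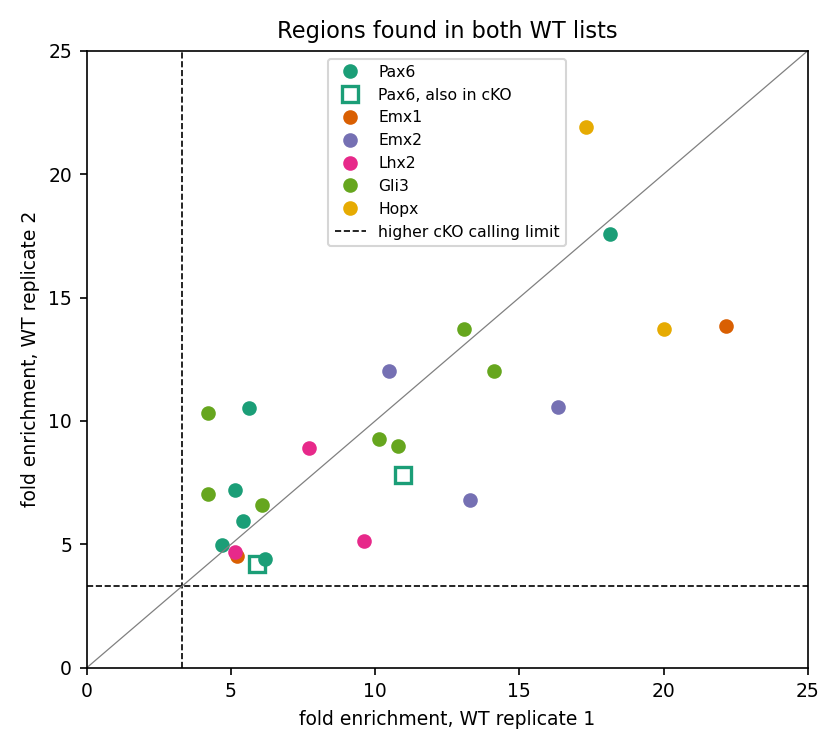
Fold enrichment in WT replicate 2 (y axis) against WT replicate 1 (x axis) for the 25 regions found in both WT lists, coloured by gene, with the diagonal of equal fold in grey and the higher cKO calling limit of 3.30 dashed on both axes. All points lie above the limit in both libraries, as most called WT peaks do, and the open squares are the 2 Pax6 regions that also had cKO peaks.

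Pax6 was the gene with the most WT peaks of the 6, and the only 1 of them with peaks in both cKO libraries. Pax6 (gene ID 18508) lies on the plus strand at chr2:105668896-105698410. It had 2 and 2 peaks in cKO replicates 1 and 2, against 10 and 15 in WT replicates 1 and 2. The counts did not overlap. As a share of each list the genotypes did overlap, with 0.439 and 0.648 peaks per 1000 in the cKO libraries and 0.722 and 0.563 in the WT libraries. In lists of equal length Pax6 had 1 and 2 cKO peaks and 2 and 1 WT peaks, so the lower number in the cKO was not present there.

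The strongest Pax6 region was in the gene body at chr2:105686486-105687426, 18073 bp from the first start site and 4506 bp past the inner start site. No cKO peak overlapped it, and its folds were 18.2 and 17.6 in WT replicates 1 and 2 (17.9 ± 0.414, SD, n = 2). The WT summits lay 1 bp apart, with pileups of 42 and 54 fragments. Both WT libraries thus placed a strong summit at the same base pair or the next.

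The next Pax6 region was called in both genotypes. It spanned chr2:105672737-105673152 in cKO and chr2:105672612-105673399 in WT, inside the gene body. The fold was 9.93 and 5.99 in cKO replicates 1 and 2, and 11.0 and 7.82 in WT replicates 1 and 2, so the values of the genotypes overlapped. Pileups were 44 and 24 fragments in the cKO libraries and 20 and 25 in the WT libraries. The summits stood apart: they lay 4041 and 4076 bp from the first start site in the cKO libraries and 4390 and 4343 bp in the WT libraries. WT replicate 2 also had a weaker peak in this region, 3862 bp from the start, with a fold of 4.21.

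A second Pax6 region with peaks in all 4 libraries followed close by, at chr2:105675241-105675498 in cKO and chr2:105675351-105675857 in WT. Its folds were 3.11 and 4.004 in cKO replicates 1 and 2, against 5.91 and 4.19 in WT replicates 1 and 2. Both cKO folds were below both WT folds, but pileups were 16 and 16 fragments in the cKO libraries and 13 and 14 in the WT libraries. Local background was 4.46 and 3.25 in cKO replicates 1 and 2 and 1.37 and 2.58 in WT replicates 1 and 2. The share of all regions called in both genotypes with such folds is not given here. The 4 peaks did not all overlap, however. That of WT replicate 2 began at base 105675487 and that of cKO replicate 1 ended at base 105675482. The peak of WT replicate 1 overlapped both, so the folds are not all of 1 shared site. The cKO summits lay 6522 and 6367 bp from the first start site, nearer to it than the WT summits at 6721 and 6785 bp. That of cKO replicate 2, at base 105675263, lay outside the WT region. Whether summits differ by genotype over all regions called in both was not tested. Of all regions found in both WT lists, 8.5% overlapped a cKO peak, and no region of the other 5 genes did.

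Upstream of Pax6, 4 WT-only regions lay 52393 to 64067 bp before the gene. The strongest was at chr2:105604690-105605214, with folds of 5.63 and 10.5 in WT replicates 1 and 2 (8.07 ± 3.45). The next, at chr2:105611991-105612716, had folds of 5.14 and 7.22 (6.18 ± 1.47). The other 2 upstream regions and the remaining one in the body were weaker, with mean folds between 4.83 and 5.67.

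The highest enrichment within 100 kb of Pax6 was in the neighbouring gene Elp4, which encodes an Elongator subunit and whose introns are known to hold long-range Pax6 enhancers. The rule gives these peaks to Elp4. Within 100 kb of Pax6 it held 0 and 0 peaks in cKO replicates 1 and 2, and 2 and 7 in WT replicates 1 and 2. Its main peak was at chr2:105719349-105721401 in WT replicate 1, with a fold of 24.8 and a pileup of 53 fragments. In WT replicate 2 it was at chr2:105719256-105721437, with a fold of 22.1 and a pileup of 93. The summits lay 22588 and 22602 bp beyond the end of Pax6.

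Gli3 had no cKO peak and, next to Pax6, the most WT peaks of the 6. Gli3 (gene ID 14634) lies on the plus strand at chr13:15463723-15730026, the longest body of the 6. It had 0 and 0 peaks in the cKO libraries, against 10 and 12 in WT replicates 1 and 2. Cut to equal length, the counts were 0 and 0 in cKO and 4 and 3 in WT. How many of all genes are so separated at that length is not given here. All 7 of its regions found in both WT lists were inside the gene body and none overlapped a cKO peak.

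Far inside Gli3 stood its strongest region, at chr13:15707395-15708150, 244251 bp from the start site, with folds of 13.1 and 13.7 in WT replicates 1 and 2 (13.4 ± 0.452). The region at chr13:15543050-15544611 had folds of 14.1 and 12.0 (13.1 ± 1.46). The regions next in fold lay at chr13:15714585-15715382, with 10.8 and 8.99 (9.89 ± 1.27), and at chr13:15550174-15550493, with 10.1 and 9.28 (9.71 ± 0.602). WT summits were 4 to 29 bp apart in these 4 regions. At the Gli3 start, WT replicate 1 alone had a peak, 583 bp before the gene, with a fold of 6.07.

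Emx1 had few peaks, none of them in its body. Emx1 (gene ID 13796) lies on the plus strand at chr6:85187931-85204463. It had 0 and 0 peaks in the cKO libraries and 2 and 3 in the WT libraries. The cKO embryos carry Cre at this locus, and what that does to peaks there was not tested. The main Emx1 region was at chr6:85165401-85166057, 22263 bp before the gene, with folds of 22.2 and 13.9 in WT replicates 1 and 2 (18.0 ± 5.86) and pileups of 48 and 58 fragments. The value of WT replicate 1 was the highest fold of any peak assigned to the 6 genes. A weaker region at chr6:85185943-85186213, 1789 bp before the gene, had folds of 5.23 and 4.54 (4.89 ± 0.484).

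Peaks around Emx1 that the rule gives to Spr and Sfxn5, its neighbours, were present in both genotypes. Within 100 kb of Emx1 they numbered 2 and 2 in cKO replicates 1 and 2, and 3 and 9 in WT replicates 1 and 2. Both cKO libraries had a peak in Sfxn5, a sideroflexin gene, 34756 and 34790 bp past the end of Emx1, with folds of 5.74 and 7.16. WT replicate 2 had a peak at this same place with a fold of 3.91, and WT replicate 1 had none.

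Emx2 had peaks in 1 of the cKO libraries, at places other than the WT peaks. Emx2 (gene ID 13797) lies on the plus strand at chr19:59458690-59465357. It had 2 and 0 peaks in cKO replicates 1 and 2, against 6 and 9 in WT replicates 1 and 2. Per 1000 peaks of the list, cKO replicate 1 had 0.439 and cKO replicate 2 none, and the WT libraries had 0.433 and 0.338, so the genotypes overlapped on this scale. In lists of equal length Emx2 had 2 and 0 cKO peaks and 3 and 2 WT peaks, so cKO replicate 1 equalled WT replicate 2 and the genotypes were not separated (exact two-sided permutation p = 0.667). The cKO replicate 1 peaks were at chr19:59454258-59454463, 4312 bp before the gene, with a fold of 5.47, and at chr19:59464241-59464454 in the body, with a fold of 5.99. Neither overlapped a WT peak.

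The leading WT region of Emx2 covered its start site, the promoter printed above. It lay at chr19:59458592-59459005, with summits 50 and 79 bp past the start and folds of 16.3 and 10.6 in WT replicates 1 and 2 (13.4 ± 4.09). It was the only region of the 6 genes that was found in both WT lists and had its summit within 1 kb of a gene end. A distal region at chr19:59541548-59542338, 76608 bp past the gene, had folds of 10.5 and 12.0 (11.3 ± 1.07). A broad region of 2133 bp, at chr19:59465352-59467484 from the last bases of the gene onward, joined 2 peaks of WT replicate 1 and 3 of WT replicate 2. Its folds were 13.3 and 6.82 (10.05 ± 4.57), and its strongest summits were 634 bp apart.

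Lhx2 had no cKO peak, and the mean fold of its leading WT region was the lowest among the 6 genes. Lhx2 (gene ID 16870) lies on the plus strand at chr2:38339271-38369737. It had 0 and 0 peaks in the cKO libraries, against 3 and 8 in WT replicates 1 and 2. In the gene body, the region at chr2:38347551-38348424 had folds of 7.69 and 8.89 (8.29 ± 0.844). The region at chr2:38340712-38341253 had 9.62 and 5.13 (7.38 ± 3.17), and the region at chr2:38395189-38395490, 25529 bp past the gene, had 5.14 and 4.70 (4.92 ± 0.310). The highest fold of Lhx2, 11.7 at chr2:38424386-38425049, came from WT replicate 2 alone, 54879 bp past the gene. The peak over the promoter shown above was also in that library alone, with a fold of 5.69. A cKO replicate 2 peak given to the neighbouring gene Dennd1a, 51924 bp before Lhx2, had a fold of 5.10.

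Hopx had no cKO peak and held the region with the highest mean fold of the 6 genes. Hopx (gene ID 74318) lies on the minus strand at chr5:77086986-77115123. It had 0 and 0 peaks in the cKO libraries, against 3 and 7 in WT replicates 1 and 2. In lists of equal length it had 0 and 0 cKO peaks and 2 and 2 WT peaks, again with no share over all genes beside it. The region at chr5:77089787-77091097, in the gene body 4444 bp past the inner start site, had folds of 17.3 and 21.9 (19.6 ± 3.25) and pileups of 34 and 82 fragments. The region at chr5:77122097-77124093, before the first start site, had 20.004 and 13.7 (16.9 ± 4.43). Its strongest summits were 633 bp apart, 7919 bp before that site in WT replicate 1 and 7286 bp in WT replicate 2. The 2 folds are thus not of 1 shared summit. The mean fold of these regions was among the 4 highest of the 25.

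Around the Hopx start sites peaks were called in WT replicate 2 alone. The peak before the first start site had a fold of 10.5, that just inside it 4.25, and that at the inner start site 6.15. The neighbouring gene Thegl held a peak 29915 and 29790 bp past the end of Hopx, with folds of 10.3 and 25.5 in WT replicates 1 and 2 and no peak in either cKO library. The fold in WT replicate 2 was higher than that of any peak assigned to the 6 genes.

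**Figure D4:**
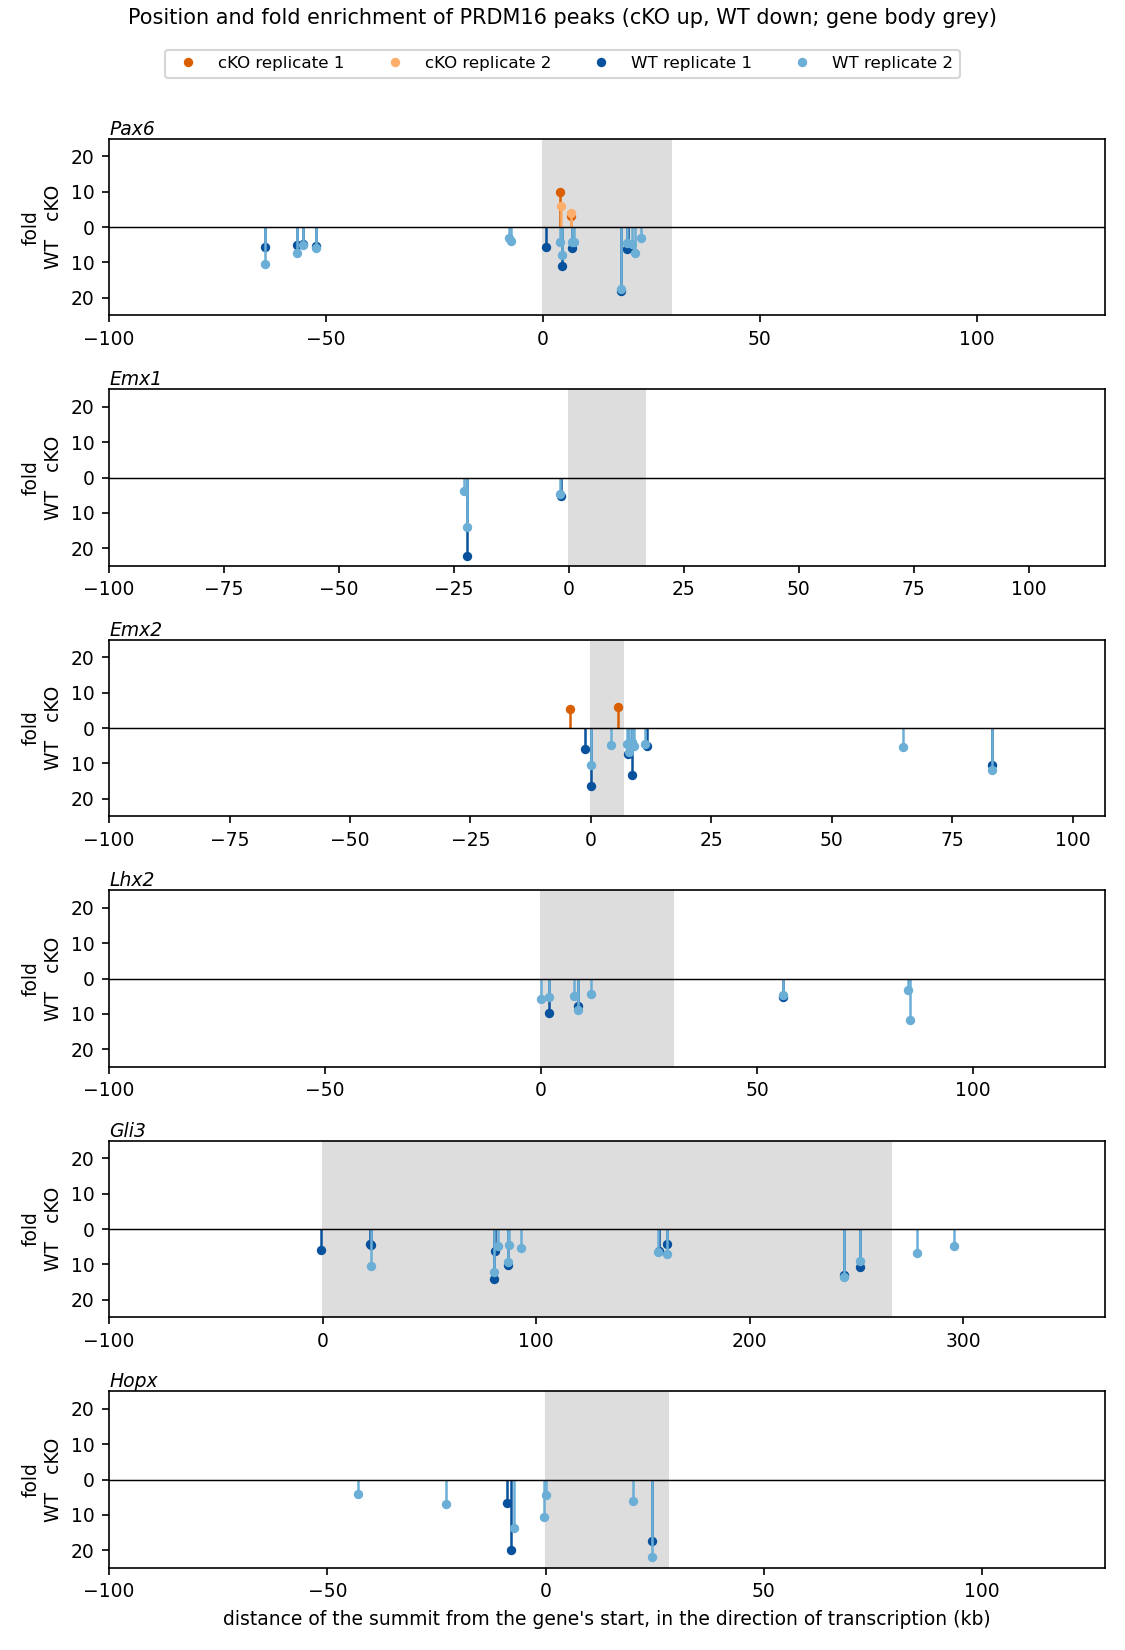
Fold enrichment of each peak (y axis, cKO upward and WT downward from 0) against the distance of its summit from the gene's start in the direction of transcription (x axis, kb), 1 panel per gene, with the gene body in grey and 1 colour per library. The upward stems are the 4 Pax6 peaks at 4041 to 6522 bp and the 2 Emx2 peaks of cKO replicate 1; the Gli3 stems run through the body, and the strongest Emx1 stems lie 22263 bp before the gene.

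Other genes had the same or nearly the same numbers of peaks in the 4 libraries. Likeness was measured as the sum of absolute differences in peak number over the 4 libraries, with ties ordered by WT fold. Nearest to Pax6 were Erbb4 (1 and 1 in cKO, 10 and 15 in WT) and Rhcg (2 and 1 in cKO, 11 and 14 in WT), at sums of 2 and 3. Nearest to Gli3 were Alpk1 (0 and 0 in cKO, 10 and 13 in WT) and Ank2 (0 and 0 in cKO, 10 and 14 in WT). Emx2 was nearest to Frmd4b (2 and 0 in cKO, 6 and 8 in WT) and Tuba1a (1 and 0 in cKO, 6 and 9 in WT). The patterns of Lhx2, Hopx and Emx1 were met exactly by 10, 18 and 126 other genes, the closest in fold being Kif6 and Suclg2 for Lhx2, Egfem1 and Ptgfrn for Hopx, and Kif3c and Tecta for Emx1.

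Companion lists put the 6 genes beside related factors. Of 15 other cortical area and forebrain patterning factors, 5 had a region in both cKO lists and 13 had a WT-only region; 10 had fewer peaks in both cKO libraries than in both WT libraries, and 0 had more. For comparison, 6.83% of all protein-coding genes had a region in both cKO lists and 16.6% had a WT-only region. Fewer peaks in both cKO libraries were counted at 15.7% of all genes, and more at 1.7%. Among genes with a territory at least as long as that of Emx1, 28.5% had a WT-only region and 26.9% fewer peaks in both cKO libraries. Among the highest WT regions were those at Sp8 (12.9 ± 0.538) and Bcl11a (12.2 ± 0.904). Those with a region in both cKO lists were Sp8, Bcl11a, Otx1, Nr2f1 and Dmrta2, and Dmrta2 had 4 and 2 peaks in cKO against 3 and 3 in WT. SP8 and NR2F1 pattern cortical areas along the rostrocaudal axis.

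Among 12 Hedgehog pathway genes, the pathway GLI3 serves, 2 had a region in both cKO lists, Gas1 and Kif7, and 8 had a WT-only region; 8 had fewer peaks in both cKO libraries and 0 more. The highest WT regions lay at the co-receptor gene Cdon (21.4 ± 2.37), at Gli2 (19.3 ± 7.80), which encodes the main activator of the pathway, and at Hhip (17.2 ± 6.74), which encodes a secreted Hedgehog-binding inhibitor. Of 12 ventral telencephalic factors, 0 had a region in both cKO lists and 7 had a WT-only region, among them Gsx1 (10.6 ± 3.83) and Dlx2 (7.68 ± 1.88). Fewer peaks in both cKO libraries were counted at 6 of these 12, and more at 0. Of 8 other Pax genes, 0 had a region in both cKO lists and 4 had a WT-only region, led by Pax5 (22.2 ± 1.63), Pax7 (19.4 ± 1.10) and Pax3 (13.5 ± 4.52), and 3 had fewer peaks in both cKO libraries. The median number of regions found in both WT lists was 2 for the area factors, 2.5 for the Hedgehog genes, 1 for the ventral factors and 0.5 for the Pax genes, with median territories of 125, 143, 94.3 and 195 kb. The shares over all genes, for each of these counts, are those given with the area factors. No difference between these lists and the 6 genes was tested.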

How the data were processed

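ChIP-seq of PRDM16 was analysed in 2 cKO and 2 WT libraries. Tools listed without settings, per the submitters' processing notes, are Bowtie2 2.2.8, MACS2 2.1.1, cutadapt and FastQC, with the build mm10. The authors deposited a peak list per library, so replicates were not pooled. Its fold enrichment is a ratio of summit pileup to local background in the deposited lists, and the authors gave each peak's p-value and q-value on a −log10 scale. The deposited score, 10 times the −log10 q, was not used.

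Unplaced contigs were left aside, so 37 and 19 lines of the cKO lists and 12 and 14 of the WT lists were not used. Read totals were not used here. Pileup and background were solved together from fold and p-value, with agreement within 0.0001 for 99.8% to 99.96% of peaks per library. Regions join peaks of both replicates that overlap by at least 1 bp. Gene positions came from RefSeq GRCm38.p6, the mm10 assembly. A genome sequence was not used here. Peak numbers were compared by an exact permutation test over libraries, with Benjamini-Hochberg adjustment over all genes. In this test every gene whose genotypes do not overlap gives 0.333, so its p-values do not measure the spread between libraries. That spread may be technical. Code was tested on simulated data. The 6 genes, the companion lists and the tests were chosen with earlier results of these data known. All 6 genes are named, with up to 4 regions a gene by mean WT fold, every cKO peak, the 2 genes most like each, and per companion list the 3 with the highest fold and any with a region in both cKO lists; some genes that this rule names are not reported here. Peaks of 1 WT library near start sites and peaks of neighbouring genes were added after their values were seen. Python 3.11.15, NumPy 2.4.6, SciPy 1.17.1, pandas 2.3.3 and matplotlib 3.10.9 were used. Alternatives were a stricter q-value, 10 kb, no nearest-gene condition, equal list lengths, merged intervals, a 50% overlap, leaving out each library and a replicate block.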

Additional observations from a re-analysis of the deposited data

How the results depend on the processing

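Most recomputed values kept their direction, or stayed within 1.5 times for counts: 96 did and 7 moved, and none reversed. Part of the 96 could not move, so the tally is no measure of robustness. The mean difference with the replicate number as a block equals the unblocked one by arithmetic. The stricter q-value and merging left the peaks of the 6 genes as they were. With every list cut to 3088 peaks, the Pax6 difference (cKO minus WT) became 0, Emx2 (difference -1.5) no longer separated the genotypes, the mean WT count over the 6 genes 12, and the regions found in both WT lists 9, all 9 without a cKO overlap. Without the nearest-gene condition the cKO mean was 5.5 peaks and the WT mean 55.5. Leaving out each library in turn gave 25 to 54 regions and 23 to 51 without a cKO overlap, the highest when WT replicate 1 was left out; those without it are the peaks of WT replicate 2 alone. A −log10 q of at least 2 removed none of the peaks of the 6 genes, and merging intervals changed nothing. Scaled per 1000 peaks, an alternative chosen after seeing the data, all 6 differences stayed below 0, but at Pax6 and Emx2 the genotypes overlapped. Over all protein-coding genes, 12.5% had fewer peaks per 1000 in both cKO libraries than in both WT libraries.

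With the replicate number as a block, the differences in peak number (cKO minus WT) were -10.5 for Pax6, -2.5 for Emx1, -6.5 for Emx2, -5.5 for Lhx2, -11 for Gli3 and -5 for Hopx, as without it. The exact sign-flip p was 0.5 for each, the smallest that 2 pairs allow. Over all 6 genes the paired differences were -30 and -52 peaks. The labels do not say that the numbers mark a shared litter or day, and across 9610 genes the deviations of same-numbered libraries had a correlation of -0.0262. Regions join both replicates and come from no test over libraries, so they have no paired form. At the median background of its list, the smallest fold a library called was 3.18 and 3.30 in cKO replicates 1 and 2. It was 3.53 and 3.01 in WT replicates 1 and 2, so this limit is not particular to the cKO lists. Where local background differs from the median, the limit differs too.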
